A study of Mus musculus with 4 samples.

Results

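Chromosome 2 carried 411 of the 4638 Zac1 peaks listed for the mouse neuroblastoma line Neuro-2A, or 8.86% of the list. They are described here as all peaks of the deposited mm9 peak table that lie on this chromosome, assigned to windows of 10 Mb by their midpoints. A proximal stretch from 20 to 40 Mb held 190 of them and the rest of the chromosome 221. The study asked where Zac1 binds. It compared chromatin precipitated with an in-house anti-Zac1 antibody (ChIP) with input chromatin, 2 libraries each, and all 4 libraries came from Neuro-2A cells (strain given as Swiss Albino) transfected with the plasmid pRK5-Zac1 and fixed 16 h later. Zac1 was thus supplied from a plasmid in every library, in 1 tumour line. Cells without the plasmid and a control antibody were not analysed here, so input is the background. The table gives 1 ChIP and 1 input value per peak, so no value has a replicate check and no test of a difference was made. Intervals below are exact 95% intervals that cover counting error only.

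Zac1, also called Plagl1, is a zinc finger transcription factor that binds GC-rich DNA and is expressed from the paternal copy of an imprinted gene. It is known for restraining the cell cycle and for its place among imprinted genes that act on growth. The proximal part of mouse chromosome 2 is largely conserved with the human region 9q34, and carries genes such as Notch1, a receptor of cell-cell signalling, Tsc1, a brake on the growth kinase mTOR, and Abl1, a tyrosine kinase. Farther along the same chromosome lie the imprinted genes Nnat, which encodes a small membrane protein of neural tissue, and Gnas, a complex locus for a G protein subunit. The order of these genes comes from a RefSeq table of the assembly GRCm38.p6. That assembly differs from mm9, so no peak was assigned to a gene.

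The whole list held 388156 ChIP reads against 20321 input reads inside peaks. Of these, 32667 ChIP reads against 1600 input reads fell in the peaks of chromosome 2. The false discovery rate in the authors' deposited table was 0 at the precision written for 411 of the 411 peaks. Folds were computed from the reads of each region after input counts were multiplied by 0.6961, the constant recovered from the deposited folds. Every listed region was selected for enrichment on these same reads, so folds describe the list.

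Zac1 peaks were very unevenly spread along chromosome 2. The window from 20 to 30 Mb held 100 peaks and the window from 30 to 40 Mb held 90, which is 46.2% (41.3% to 51.2%) of the peaks in 10.5% of the 190 Mb up to the end of the last window with a peak. The stretch had 9.50 peaks per Mb, the rest of the chromosome 1.30 and all other chromosomes together 1.70. The peak density of the stretch was 7.31 times that of the rest of chromosome 2. Of 268 windows over all chromosomes, these windows stood at places 8 and 11 by peak number, against a median of 5 peaks per window. The limits of 20 and 40 Mb were set with the peak counts known. The share, the densities and these places therefore follow in part from that choice and test nothing.

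A second, less dense group lay toward the distal end. The window from 150 to 160 Mb held 46 peaks, that from 160 to 170 Mb held 62 and that from 170 to 180 Mb held 24, together 132 peaks at 4.40 per Mb. The limits of this group were also chosen after the counts were seen. From 150 to 190 Mb there were 140 peaks, at 3.5 per Mb. Between 90 and 130 Mb, limits chosen after the counts were seen, lay 62 peaks, at 1.55 per Mb. They did not form a single group. Between 90 and 100 Mb there were 25, between 100 and 110 Mb 1, and between 110 and 130 Mb 36. Gaps of 7.77 and 11.8 Mb set these apart. The first 20 Mb held 9 peaks, and the 50 Mb after the proximal stretch held 8. No peak lay in the windows from 40 to 50, from 80 to 90 and from 140 to 150 Mb.

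The proximal stretch thinned out beyond 34 Mb and then ended in a long gap. Its last peak (chr2:38920826-38920942, with 102 ChIP reads against 7 input reads) was followed by 20.5 Mb without a listed peak, the longest such gap on the chromosome. The next peak (chr2:59449787-59449859) had 64 ChIP reads against 5 input reads. On the other side, the first peak of the stretch (chr2:22178639-22178708) was isolated by 2131 kb from its nearest neighbour, and its 86 ChIP reads faced 12 input reads, a 10.3-fold excess (5.60 to 20.7).

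**Figure D1:**
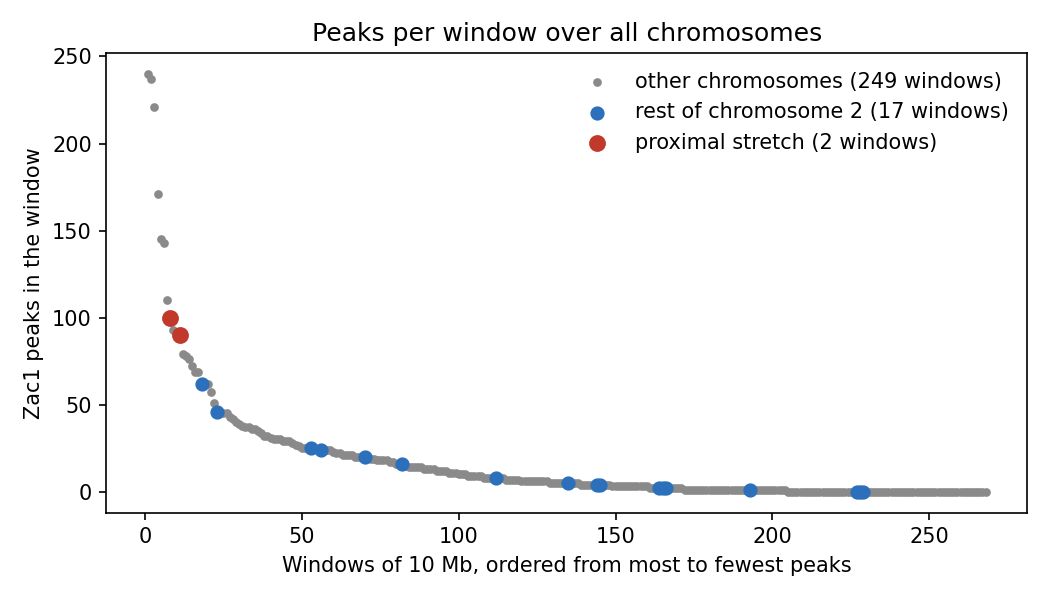
Zac1 peaks in each of 268 windows of 10 Mb, ordered along the horizontal axis from most to fewest peaks. Red points are the windows of the proximal stretch of chromosome 2, with 100 and 90 peaks, blue points the other 17 windows of chromosome 2, and grey points the 249 windows of other chromosomes.

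Within the stretch, peaks were concentrated once more. The 9 Mb from 25 to 34 Mb held 164 of the 190 peaks (86.3%), or 18.2 per Mb, limits chosen after the counts were seen. The bin from 27 to 28 Mb held 28 peaks, that from 31 to 32 Mb held 25 and that from 26 to 27 Mb held 23. The bins from 28 to 29 Mb and from 33 to 34 Mb had the fewest of the core, 12 each. Of the 20 bins of 1 Mb in the stretch, 4 held no peak, and between 34 and 37 Mb there were single bins with 1, 4 and 1 peaks. A smaller group of 9 peaks at 37 to 38 Mb and 7 at 38 to 39 Mb closed the stretch.

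The bins of the core also differed in input. The bin from 28 to 29 Mb had 6.42 input reads per peak (5.06 to 8.02), an interval that lay wholly above those of 6 of the other 8 core bins. The means of these 8 ran from 3.20 to 4.74. Its 12 peaks had a median of 91.5 ChIP reads and a summed fold of 21.0 (16.7 to 26.9), the lowest of the 9 core bins. Among these 12 were the peaks with the most input reads of the chromosome, 16 and 15 of the 77 in the bin. The high mean thus rests in part on single peaks, and no mean without them was computed. The bin from 31 to 32 Mb had almost the same median, 92 ChIP reads, with 3.80 input reads per peak (3.07 to 4.65), and the highest summed fold, 34.9 (28.4 to 43.3). Outside the core, the 9 peaks at 37 to 38 Mb had the highest median, 109 ChIP reads, and 6.56 input reads per peak (4.99 to 8.46).

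**Figure D2:**
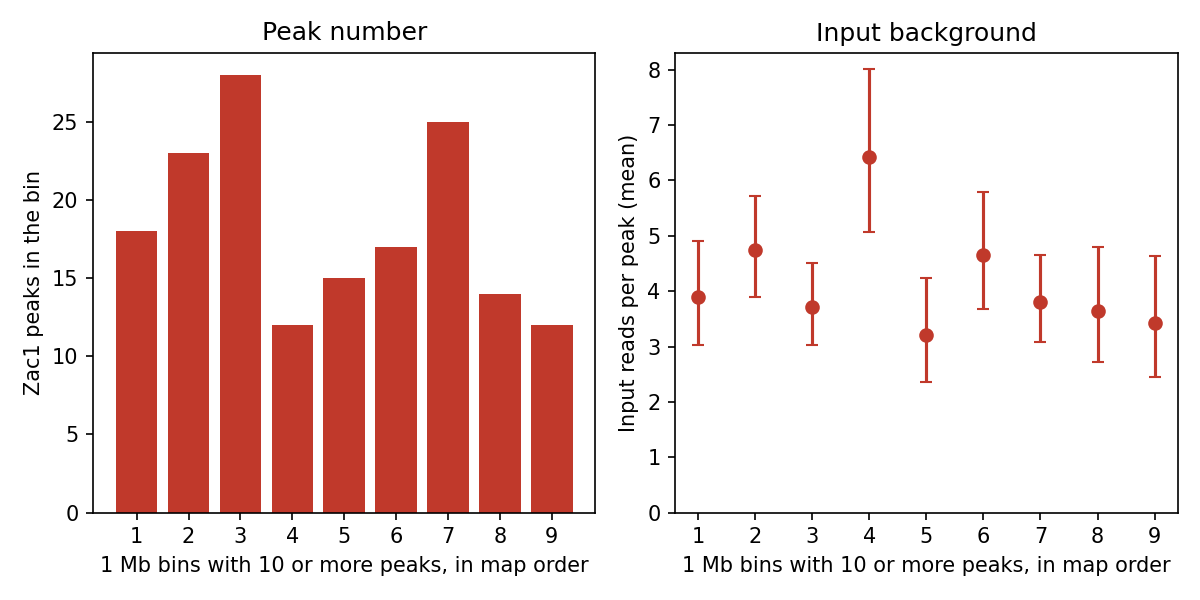
The 9 bins of 1 Mb with at least 10 peaks in the proximal stretch, in map order. Left, bars give Zac1 peaks per bin, from 12 to 28. Right, points give mean input reads per peak and lines the exact 95% Poisson interval, highest in the fourth bin (6.42) and lowest in the fifth (3.20).

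The best ranked sites of chromosome 2 came from both parts. By the authors' rank, 6 of its 10 best peaks lay in the stretch and 4 in the rest, and 9 of the 10 were shorter than 120 bp. The best, at rank 9, was a 71 bp peak at chr2:30728241-30728311. It held 152 ChIP reads, 37 of them in the busiest window of the weaker strand, the highest such value on the chromosome. It had 1 input read, so its fold of 218.4 has an interval from 38.6 to 8681 and its size is poorly known.

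Some peaks of the stretch had nearly the same deposited fold, which is the largest ratio of any window. Their input reads over the whole region ran from 4 to 6. The peak at chr2:26102418-26102501 had 149 ChIP reads against 6 input reads (35.7-fold, 16.0 to 98.8). The peak at chr2:31656548-31656630 had 161 and 5 reads (46.3-fold, 19.4 to 144.4). The peak at chr2:32493607-32493702 had 137 and 4 reads (49.2-fold, 18.8 to 183.2). In the authors' deposited table the log2 folds of these peaks were 5.88, 5.83 and 5.83. Their intervals overlap, and their order cannot be told apart at this depth. The peaks at chr2:27631233-27631304 (147 ChIP reads against 3 input reads) and at chr2:31309045-31309107 (101 and 4) complete the set from the stretch, with log2 folds of 5.75 each in the authors' deposited table.

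The strongest peaks of the stretch by ChIP reads were not all among its best ranked. The highest count, 179 ChIP reads, belonged to a 29 bp peak at chr2:37631641-37631669 with 12 input reads (21.4-fold, 11.97 to 42.3) and the authors' rank of 403. The next, with 167 ChIP reads against 2 input reads, spanned 133 bp at chr2:32175042-32175174 (119.95-fold, 32.7 to 998.7) and ranked 1448, where the authors' deposited table gives a log2 fold of 5.13. The site at rank 62 came next, with 161 reads. The fewest ChIP reads in the stretch, 39, were in a peak at chr2:35585864-35585970 that ranked 4638 (4 input reads, 14.01-fold, 5.05 to 54.0).

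The largest ChIP counts of the chromosome lay outside the stretch. A 349 bp peak at chr2:167546936-167547284 had 269 ChIP reads against 5 input reads, a 77.3-fold excess (32.7 to 240.0), and the third best rank of the chromosome, 42. Near the distal end, a 67 bp peak at chr2:180394910-180394976 had 246 ChIP reads against 5 input reads (70.7-fold, 29.9 to 219.6). Another distal peak, at chr2:180330192-180330304, had 143 ChIP reads and 1 input read and ranked 111. All 3 combined many ChIP reads with few input reads. The longest peak, 667 bp at chr2:154394132-154394798, had 184 ChIP reads against 13 input reads (20.3-fold, 11.6 to 38.9). The second best rank, 28, was at chr2:126969249-126969295, where 87 ChIP reads faced 1 input read. At chr2:155433062-155433127, ranked 76, the counts were 131 and 8. At least 150 ChIP reads were reached by 4 of 190 peaks of the stretch and by 7 of 221 of the rest. The share of all listed peaks that reach this limit was not computed, so these counts set neither part apart.

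Typical peaks of the stretch held slightly more reads than those of the rest of the chromosome. The median was 76 ChIP reads (interquartile range 62 to 98, from 39 to 179) against 71 (58 to 87, from 38 to 269). The ratio of the means was 1.08 (1.06 to 1.10), small beside the spread between peaks, and all other chromosomes had a median of 75 (60 to 98). Within the stretch, the window from 20 to 30 Mb had a median of 74 and that from 30 to 40 Mb one of 82.5. The latter value was the highest among windows of chromosome 2.

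Input was higher as well. Peaks of the stretch held a mean of 4.23 input reads (3.94 to 4.53) and those of the rest 3.61 (3.36 to 3.87), a ratio of 1.17 (1.06 to 1.29). All other chromosomes had 4.43 (4.37 to 4.49), which gave a ratio of 0.954 (0.888 to 1.02) for the stretch and 0.814 (0.758 to 0.874) for the rest. Without chromosomes 4, 8, 11 and 15, left out after seeing the data because they hold the most peaks, the others had 3.98 (3.89 to 4.07) and the ratios were 1.06 (0.987 to 1.14) and 0.907 (0.842 to 0.975). No input read was found in 6 peaks of the stretch (3.16%) and in 14 of the rest (6.33%), against 5.22% of all listed peaks. Among the denser distal windows, 150 to 160 Mb had 4.65 input reads per peak (4.05 to 5.32) and 160 to 170 Mb had 3.24 (2.81 to 3.72). Input therefore varied along the rest as well as between it and the stretch. The part of local DNA amount in the number of listed peaks was not tested.

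**Figure D3:**
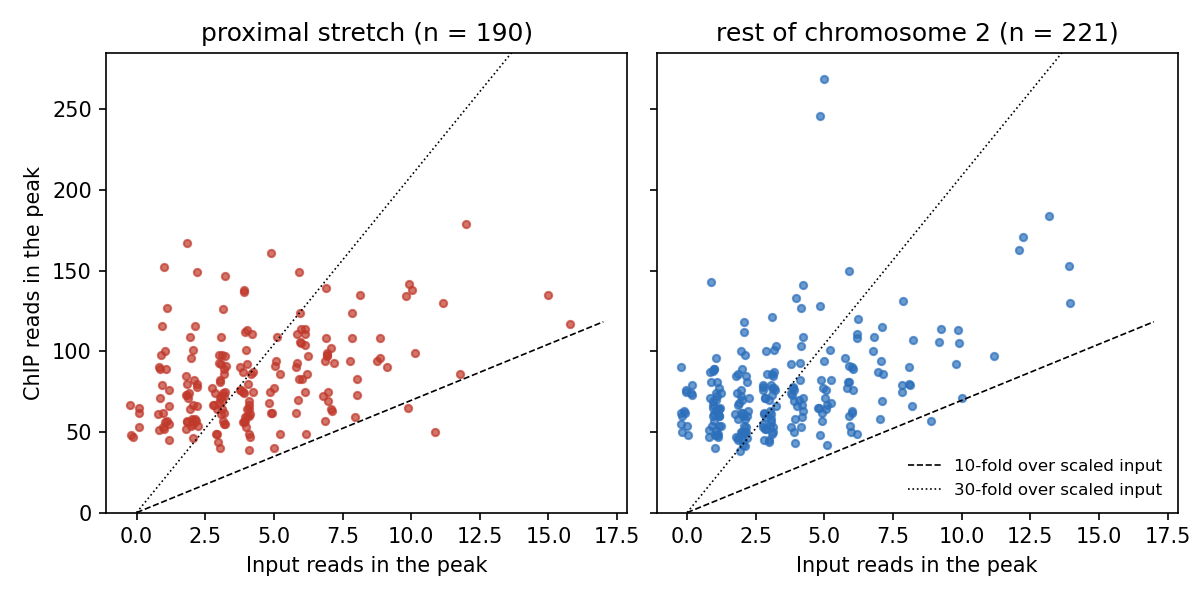
ChIP reads against input reads of each peak in the proximal stretch (left, 190 peaks) and the rest of chromosome 2 (right, 221 peaks), with input values spread slightly sideways for display. The dashed and dotted lines mark 10-fold and 30-fold over scaled input. Most peaks of both parts lie between 50 and 100 ChIP reads, and the 2 highest counts, 269 and 246, are in the right panel.

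The summed enrichment of both parts was of similar size, and no interval of the difference was computed. Summed over peaks, ChIP exceeded scaled input 28.2-fold (26.2 to 30.3) in the stretch and 30.5-fold (28.4 to 32.8) in the rest, intervals that overlap, and 27.3-fold (26.9 to 27.7) on all other chromosomes. A peak was called strong where the lower limit of its own fold exceeded 10. This held for 119 of 190 peaks of the stretch (62.6%) and for 125 of 221 of the rest (56.6%), against 58.3% of all listed peaks. These shares lie near that background and set neither part apart. The windows from 20 to 30 Mb and from 30 to 40 Mb had 57 of 100 and 62 of 90 strong peaks. The lowest fold on the chromosome, 6.53 (3.36 to 13.9), was in the stretch at chr2:29057249-29057403, with 50 ChIP reads against 11 input reads. The most input reads, 16 and 15, were also there, at chr2:28100443-28100541 (117 ChIP reads, 10.5-fold, 6.20 to 18.98) and at chr2:28653099-28653308 (135 ChIP reads, 12.9-fold, 7.57 to 23.7). In the rest the highest input count was 14, shared by a 31 bp peak at chr2:121121869-121121899 (153 ChIP reads) and a 188 bp peak at chr2:157518351-157518538 (130 ChIP reads).

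**Figure D4:**
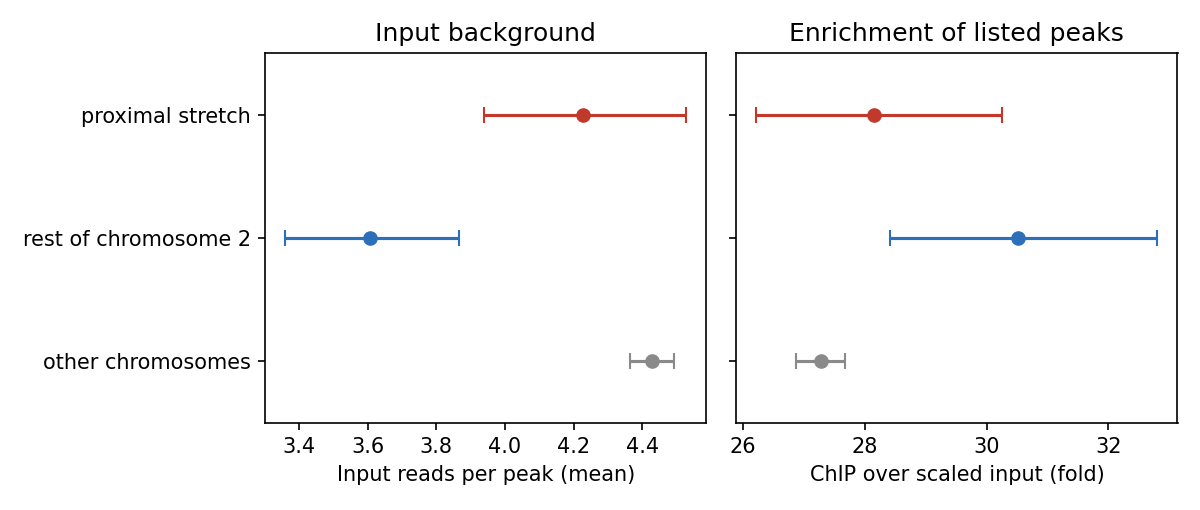
Mean input reads per peak (left) and ChIP over scaled input summed over peaks (right) for the proximal stretch, the rest of chromosome 2 and all other chromosomes. Points are the values and lines exact 95% intervals of the counts. Input per peak is 4.23, 3.61 and 4.43, and the fold 28.2, 30.5 and 27.3.

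Reads of both DNA strands supported the peaks about equally. The forward strand carried 50.1% of ChIP reads (49.4% to 50.9%) in the stretch and 50.01% (49.2% to 50.8%) in the rest. For input it was 53.2% (49.7% to 56.7%) and 49.8% (46.3% to 53.3%). In single peaks, the interval of the forward share of ChIP reads left out 50% in 6 peaks of the stretch and 3 of the rest. Together these are 9 of 411 peaks (2.19%), near the 1.72% of the whole list, 4 of them with more forward and 5 with more reverse reads. The best ranked of them, at chr2:28380667-28380744, had 62.8% forward reads among 94. In the busiest window of the weaker strand, 39 peaks of the stretch (20.5%) and 62 of the rest (28.1%) stood at 16 reads, the lowest value in the list, which 22.1% of all listed peaks had.

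Peaks were short in both parts. The median deposited length was 78 bp in the stretch, 79 bp in the rest and 84 bp elsewhere, and 24, 30 and 660 peaks (12.6%, 13.6% and 15.6%) reached 200 bp. The reverse summit lay a median of 70 bp beyond the forward summit in the stretch and 66 bp in the rest. It lay at or before the forward summit in 18 (9.47%) and 23 peaks (10.4%), against 12.3% of all listed peaks. In each of the 10 best ranked peaks of the chromosome the deposited length equalled the distance between the summits. Length and summit distance are therefore not separate measures there. The shortest length, 29 bp, was shared by 9 peaks of the stretch and 14 of the rest, the site with 179 ChIP reads among them.

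Peaks of the stretch lay closer to their nearest neighbour than those of the rest. This follows in part by construction, since the stretch was set with its high peak density known. The nearest other peak lay at a median of 15.2 kb (interquartile range 6.16 to 32.3) in the stretch and 41.8 kb (10.2 to 125.5) in the rest. Another peak within 100 kb was found for 175 of 190 peaks (92.1%, 87.3% to 95.5%) and for 159 of 221 (71.9%, 65.5% to 77.8%). Within 10 kb the shares were 33.7% (27.0% to 40.9%) and 24.4% (18.9% to 30.6%), whose intervals overlap. In the better ranked 2319 peaks of the list the order was the other way, with 13.98% of 93 peaks in the stretch and 16.4% of 110 in the rest. In the best 1000 the shares were 5.13% and 0%. No interval was computed for these shares, so which part is higher there is not settled. All other chromosomes had 42.3% (40.8% to 43.8%) within 10 kb, but 31.9% (29.8% to 33.9%) once chromosomes 4, 8, 11 and 15, which hold the most peaks, were left out. The place of the stretch below or above other chromosomes therefore depends on those 4. The most isolated peak of the chromosome, at chr2:101563199-101563325 (67 ChIP reads against 2 input reads), was 7767 kb from the next.

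Very close pairs were scarce on chromosome 2. Within 1 kb, 8 peaks of the stretch (4.21%, 1.84% to 8.13%) and 0 of 221 in the rest had a neighbour, and a count of 0 allows up to 1.36% as 3 counts of 221 (exact upper limit 1.66%). The other chromosomes had 9.44% (8.57% to 10.4%), or 6.42% (5.40% to 7.57%) without chromosomes 4, 8, 11 and 15. The 8 peaks formed 4 pairs, all with reads well above input. The closest had midpoints 275 bp apart, at chr2:29745753-29745781 (56 ChIP reads and 1 input read) and chr2:29746002-29746083 (74 and 3). At chr2:31244318-31244396 and chr2:31244792-31244890, with midpoints 484 bp apart, the ChIP reads were 104 and 86, with 6 input reads each. A pair with midpoints 564 bp apart at chr2:31951381-31951445 and chr2:31951946-31952008 had 73 and 98 ChIP reads. The widest pair, with midpoints 865 bp apart, joined a peak of 57 ChIP reads (chr2:24908375-24908469) to one of 138 (chr2:24908975-24909599).

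**Figure D5:**
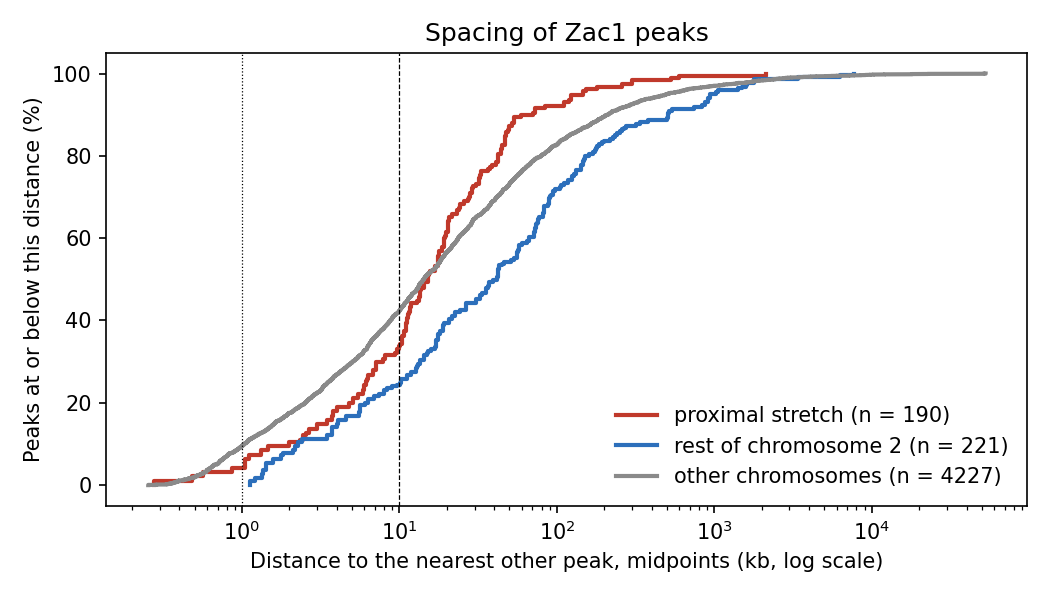
Share of peaks whose nearest other peak lies at or below the distance on the horizontal axis (kb between midpoints, log scale), for the proximal stretch (190 peaks), the rest of chromosome 2 (221) and all other chromosomes (4227). Dotted and dashed lines mark 1 and 10 kb. The red curve is below the grey one at 10 kb (33.7% against 42.3%) and above it at 100 kb (92.1% against 82.6%).

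Joining peaks with at most 10 kb between facing edges gave small groups in both parts. The stretch had 29 such groups with 65 peaks, 23 of them pairs, 5 of 3 peaks and 1 of 4. The rest had 25 groups with 57 peaks, 19 of them pairs, 5 of 3 peaks and 1 of 4. The group of 4 in the stretch (chr2:27859434-27872799, 13.4 kb) held 346 ChIP reads against 9 input reads (55.2-fold, 28.8 to 121.8). The group of 4 in the rest (chr2:164968598-164987553, 18.96 kb) held 271 and 9 (43.3-fold, 22.5 to 95.6), including a 366 bp peak with 90 ChIP reads and no input read at chr2:164968598-164968963.

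Joined within 100 kb, the stretch resolved into domains. It held 8 of the 11 domains with at least 8 peaks, a count that also follows in part from its peak density. The largest had 25 peaks over 536.5 kb (chr2:25914361-26450862), with 2015 ChIP reads against 114 input reads (25.4-fold, 21.0 to 30.9). Second in size was a distal domain of 18 peaks over 498.7 kb (chr2:164902620-165401318, 29.1-fold, 22.7 to 37.7). A domain of 16 peaks over 533.4 kb in the stretch (chr2:30212684-30746049, 25.4-fold, 20.1 to 32.4) contains the best ranked peak of the chromosome. The 3 folds differ by less than their intervals.

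Windows of like peak number elsewhere had larger shares of peaks with a near neighbour. With 80 to 120 peaks there were 3 windows on other chromosomes, at 70 to 80 Mb of chromosome 10 (92 peaks), 100 to 110 Mb of chromosome 11 (110) and 100 to 110 Mb of chromosome 15 (93). They had a neighbour within 10 kb for 47.3% to 59.1% of peaks and within 1 kb for 6.52% to 22.6%. In the windows of the stretch it was 37 of 100 and 27 of 90 peaks within 10 kb, and 4 peaks of each within 1 kb. The median distance to the nearest peak was 8.56 kb, 12.02 kb and 4.43 kb in those windows, against 11.8 kb at 20 to 30 Mb and 18.7 kb at 30 to 40 Mb of chromosome 2. By that measure 20 to 30 Mb was closer spaced than the window of chromosome 11. Input reads per peak were 4.40 to 5.41 in the windows elsewhere, against 4.32 (3.92 to 4.75) at 20 to 30 Mb and 4.12 (3.71 to 4.56) at 30 to 40 Mb of chromosome 2. The folds, 24.3 to 28.7 there against 26.5 and 30.1 here, were close. These are 5 windows without a test.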

How the data were processed

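One peak table was analysed. It carries CisGenome column names, per the file headers, and mm9 positions, per the submitters' processing notes. The aligner, the filters and the pooling of replicates were not given in the sources used here. Per the labels' protocols, libraries were made from 10 ng of DNA, sized at 200 bp with adapters and amplified by 18 PCR cycles. Per the file headers, the deposited counts are raw reads of each region, of each strand and of the busiest window. The deposited log2 fold was compared with log2 of (ChIP + 1) over (scaled input + 1), at an input constant of 0.6961. In 4638 of 4638 peaks some pair of whole counts, up to those of the busiest window, matched it within 0.0001. Any such pair was allowed, also without input reads, so this match alone does not fix the constant. The constant was the value reached by the largest number of peaks, 738. Reads of the whole region need not give the deposited fold. The deposited false discovery rate is a p-value-like quantity, the deposited strand balance a fraction, the deposited summit distance a score in bp that can be negative, and the authors' rank a score that orders peaks. Ranks run to 4688, and 50 of them were not analysed here.

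Folds are ChIP over scaled input with exact conditional binomial intervals. Shares have Clopper-Pearson and means exact Poisson intervals. Peaks share libraries and are not replicates, PCR duplicates are not known, no library totals were used, and no p-value was computed. The strong call uses a lower fold limit of 10. Regions named are the 10 best ranked, those with most ChIP or input reads in each part, the longest, the shortest (as a count), the most isolated, runs of 4 and the 3 largest domains. Other regions were chosen after their values were seen. The members and lists were chosen with earlier results of these data known. Peaks were not assigned to genes and no sequence was read, since the tables used here belong to another assembly. Scripts were tested on simulated data (Python 3.11.15, pandas 2.3.3, numpy 2.4.6, scipy 1.17.1). Alternatives were rank and read limits, merging, window edges, input scaling and neighbour distances.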

Additional observations from a re-analysis of the deposited data

How the results depend on the processing

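Of 46 alternative values for 14 results, 19 stayed within the interval of the reported value, 26 left it on the same side of 1 or as a share or fold, and 1 ratio crossed 1. That ratio, input reads per peak in the stretch over all other chromosomes, was 0.954 (0.888 to 1.02). It became 1.06 (0.987 to 1.14) without chromosomes 4, 8, 11 and 15, and both intervals include 1. The ratio of the rest went from 0.814 to 0.907. Leaving out those 4 lowered the mean of the other chromosomes from 4.43 to 3.98. Why input differs between chromosomes was not tested. The share of chromosome 2 peaks in the stretch (46.2%) was between 42.1% and 51.2% under 7 alternatives, and 40.1% for the narrower stretch of 25 to 35 Mb, which is smaller by construction. The folds of 28.2 in the stretch and 30.5 in the rest became 19.6 and 21.2 without input scaling, 39.4 and 41.3 in the better ranked 2319 peaks, 41.8 and 49.9 in the best 1000, and 21.3 and 23.1 in the busiest windows. The rest stayed above the stretch each time, an order that is fixed in advance where only the input scaling is dropped. The other alternatives reuse the same peaks and reads, and no interval was computed for them. The rank follows the deposited fold, which raises folds in better ranked peaks by construction. The ratio of ChIP reads, 1.08, was 1.14 after merging within 10 kb. The share of peaks with a neighbour within 10 kb (33.7% in the stretch, 24.4% in the rest, 42.3% elsewhere) was 4.21%, 0% and 9.44% at 1 kb and 92.1%, 71.9% and 82.6% at 100 kb. It was 13.98%, 16.4% and 32.1% in those 2319 peaks and 5.13%, 0% and 19.5% in the best 1000, where the list itself is thinner. The stretch was below the rest in the 2319 better ranked peaks and above it in the best 1000. No interval was computed for these shares, and the cause was not tested. Without those 4 chromosomes, an alternative chosen after seeing the data, the share elsewhere was 31.9%. With a lower fold limit of 5, chosen after seeing the data, 98.4% of the stretch and 99.1% of the rest were called. No paired analysis was possible because each peak has a single value for ChIP and for input, so no replicate could be left out either. Windows of 5 Mb were counted and give the same 25 to 35 Mb value. The lowest listed strand window has 16 reads, and sites with less support were not analysed here.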

Other observations

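Long regions of chromosome 2 held no listed peak. Besides the gap of 20.5 Mb after the proximal stretch there were gaps of 15.4 Mb (chr2:75541852-90936888), 14.9 Mb (chr2:136504731-151417683) and 11.8 Mb (chr2:101563325-113378554) between neighbouring peaks. Of the 19 windows of 10 Mb, 16 held a peak.

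Within the distal group, neighbouring windows differed in input and fold. The 46 peaks at 150 to 160 Mb had a summed fold of 25.3 (22.1 to 29.2) with 4.65 input reads per peak, and the 62 peaks at 160 to 170 Mb one of 33.9 (29.5 to 39.3) with 3.24. The 8 peaks beyond 180 Mb had 52.3-fold (34.3 to 83.9) with 2.75 input reads per peak (1.72 to 4.16), and 7 of the 8 were strong, against 58.3% of all listed peaks, a count that rests on 8 peaks. A domain at chr2:157248716-157742903, with 11 peaks over 494.2 kb, had the lowest fold of the 11 domains with at least 8 peaks, 19.2 (15.2 to 24.7), from 990 ChIP reads against 74 input reads. The domain of 10 peaks at chr2:167513317-167659569, over 146.3 kb, had 39.5-fold (28.5 to 56.5) from 1018 and 37 reads and contains the peak with the most ChIP reads of the chromosome.

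Among the 12 chromosomes with at least 100 peaks, the share of peaks with a neighbour within 1 kb ran from 1.63% on chromosome 7 to 15.3% on chromosome 4, and chromosome 2, at 1.95%, was the second lowest. Of its 7 windows with at least 20 peaks, 5 had no such pair, against 23 of 71 windows in the whole list.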
